A study of Homo sapiens with 6 samples.

Results

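The genes described here encode 46 proteins that make ribosomes in the nucleolus or form the RNA exosome. They were matched by symbol among the 60612 genes in the deposited tables of a study of HSC-3 cells. HSC-3 is a cell line long in culture that came from a human squamous carcinoma of the mouth. The design holds 2 groups, with no dose or time: 3 libraries overexpressing IRF9, titled IRF9-1 to IRF9-3, and 3 control libraries titled kongbai-1 to kongbai-3, which carry no overexpression label and which the design text calls wild type. IRF9 is the DNA-binding subunit of an interferon-activated transcription factor complex. The vector, its promoter, whether the controls received an empty vector, and whether the overexpressing cells were 1 clone are not stated. Separate cultures are not mentioned for the libraries of a group, so p-values reflect only how much these libraries differed among themselves, possibly for technical reasons.

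Ribosome production starts with transcription of a long precursor ribosomal RNA by RNA polymerase I. Small nucleolar RNAs, carried by box C/D and box H/ACA protein particles, guide methylation and pseudouridylation of that precursor. Assembly factors, helicases and GTPases then fold and cleave it into the small and large subunits. The RNA exosome, a ring of RNase PH-like proteins under a cap of RNA-binding proteins, passes RNA to its nucleases, trims the 3′ end of the precursor to 5.8S ribosomal RNA and destroys the discarded spacers. Growth signals and the transcription factor MYC are known to raise expression of many of these genes in proliferating cells.

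IRF9 itself had 435, 422.9 and 119.7 CPM (counts scaled to the library total, with TMM factors) in the overexpressing libraries and 27.6, 25.1 and 44.6 CPM in the controls. Overexpressing replicate 3 was low for IRF9 alone. AL136295.5 overlaps IRF9 on its strand, while RNF31 was not among the genes that overlap it by the deposited coordinates. Summed over these 3 genes, the counts were 551, 543 and 543 CPM against 127, 121 and 123 CPM. Total counts ran from 61645349 to 85156099 per library. TMM factors were 1.02 to 1.03 in the overexpressing group and 0.974 to 0.981 in the controls. All 8 squamous epithelial markers, among them KRT5, KRT14 and TP63, were expressed, and their summed level was 12900 to 13600 CPM with IRF9 against 21600 to 22300 CPM. KRT5, KRT14 and KRT17 held most of that sum. Each of the 8 had a lower mean with IRF9, but TP63 differed little, at 890 against 927.5 CPM with overlapping libraries. Of the leukocyte markers, PTPRC, CD3E and LYZ were below 1 CPM in every library, and CD14 had 24.2 to 29.4 against 22.9 to 25.02 CPM. The 5 fibroblast markers summed to 47.4 to 51.7 against 75.7 to 80.3 CPM. By mean, LUM had 11.3 against 38.9 CPM, COL1A1 33.6 against 35.7 CPM and DCN 0.52 against 0.996 CPM. COL1A2 (2.2 against 1.6 CPM) and PDGFRB (1.7 against 0.49 CPM) went the other way. The 4 endothelial markers, with KDR at 0, summed to 1.53 to 2.96 against 0.824 to 1.63 CPM. The part of all these markers in the results was not tested.

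All 46 genes passed the filter on low counts. With IRF9 overexpression, 28 of them rose, 2 fell while 16 stayed short of the threshold (edgeR quasi-likelihood test, adjusted p under 0.05 over the 19034 genes tested, n = 3 per group). The 28 make 60.9% of the members, where 18.4% of all genes tested rose, and the 2 make 4.35%, where 17.4% of all genes fell. In either direction, 35.8% of all genes were called. Among the 10004 genes with a mean of at least 10 CPM, a level that every member reached, 24.5% rose and 26.4% fell. The changes were small: the median log2 fold change of the members was 0.24, beside 0.00 for all genes tested, and the members ran from -0.30 to 0.67. The overexpressing and control libraries did not overlap for 31 members in the higher and 5 in the lower direction, beside 25.0% and 23.7% of all genes tested, or 48.6% in either direction. Without TMM factors, on library size alone, 4564 genes were higher and 2479 lower over the whole table, where TMM scaling gave 3501 and 3314, and 31 members were higher and 1 lower. Across the scalings run, the number of members that rose was 27 to 31. The members together took 0.414% to 0.424% of all counts in the overexpressing libraries and 0.357% to 0.363% in the controls.

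**Figure D1:**
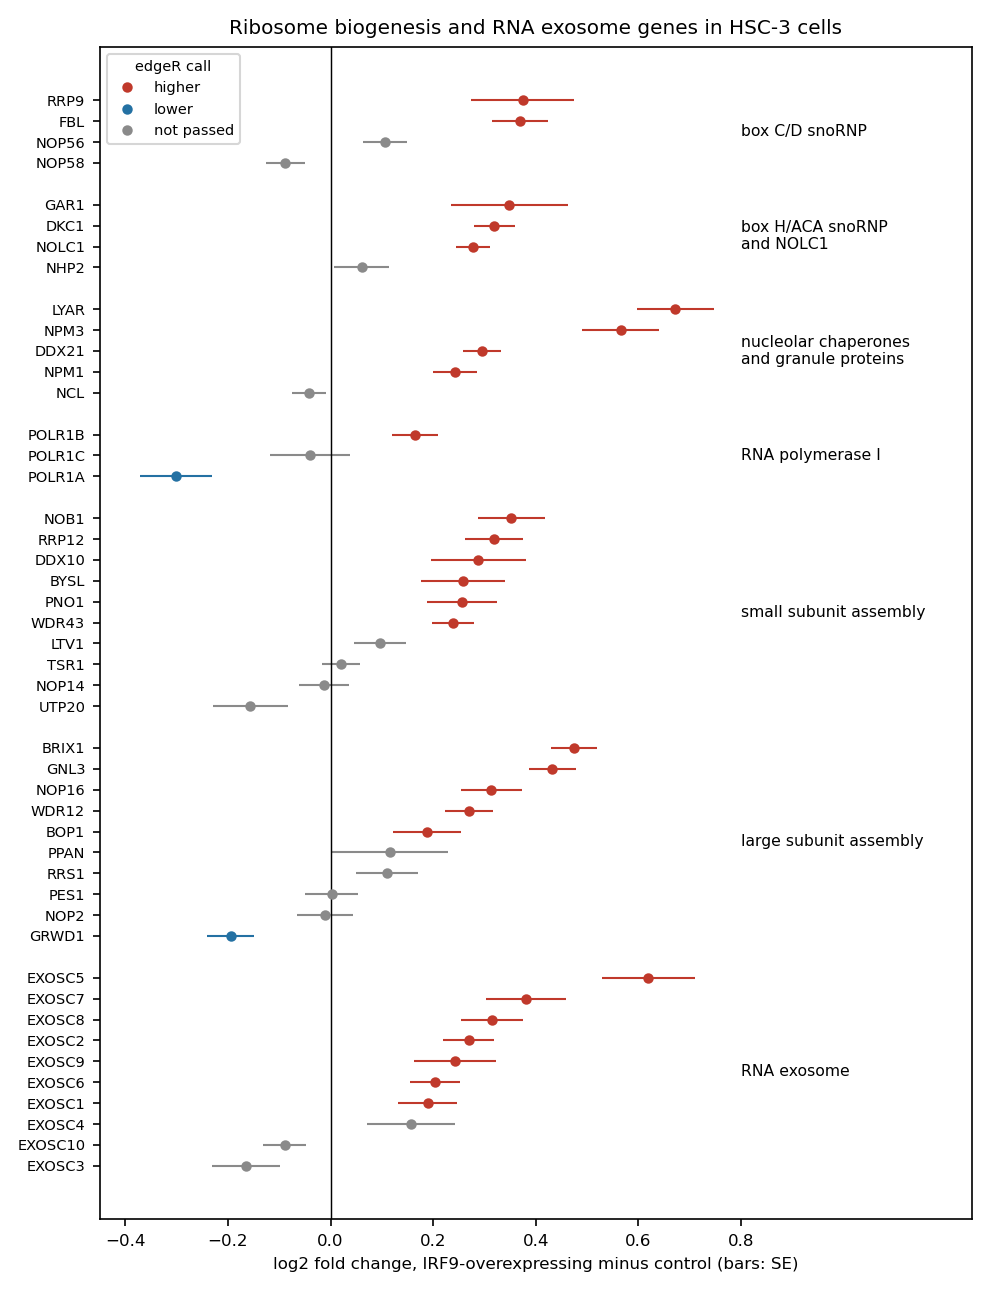
Log2 fold change (IRF9-overexpressing minus control, x axis) with its SE for each of the 46 genes, grouped by role and sorted within a role; red marks genes that rose, blue those that fell and grey those that did not pass the test. Most points lie between 0 and 0.5; POLR1A and GRWD1 are the 2 that fell, and LYAR, EXOSC5 and NPM3 lie farthest to the right.

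Since many members rose together, their promoters were searched for 3 motifs. RefSeq promoters, 250 bases before to 50 after the start, were matched by symbol for 39 of the 46 members. Only the first promoter of full length listed for each symbol was read. For some members, such as WDR12 and NCL, it lies inside the deposited span of the gene, and any other starts were not searched. CACGTG, the E-box to which MYC with MAX is known to bind, was found in 11 of the 39 (28.2%), beside 9.82% of the promoters of 11991 genes tested and 24.6% of those of 114 other genes of the pathway. CCGGAA, the core of ETS factor sites, was found in 18 (46.2%), beside 27.6% of genes tested and 58.8% of the other pathway genes. The core of the interferon-stimulated response element (ISRE), which the IRF9 complex is known to bind, was found in 2 (5.13%), those of GRWD1 and EXOSC3, beside 3.06% of genes tested and 7.89% of the other pathway genes. Both strands were read, and CACGTG reads the same on both. Among the 24 matched members that rose, 6 held CACGTG and 0 held the ISRE core; of the 13 that did not pass the test, 5 held CACGTG and 1 held the ISRE core. These counts were not tested, and a match of letters is not a shown binding site.

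The promoters below belong to the 3 E-box members with the smallest p, and show where the E-box, in capitals, lies relative to the start (GRCh38.p14, RefSeq, 5′ to 3′ on the gene's strand). They are EXOSC5 at chr19:41397310-41397609, minus strand, FBL at chr19:39846330-39846629, minus strand, and WDR43 at chr2:28894417-28894716, plus strand.
EXOSC5: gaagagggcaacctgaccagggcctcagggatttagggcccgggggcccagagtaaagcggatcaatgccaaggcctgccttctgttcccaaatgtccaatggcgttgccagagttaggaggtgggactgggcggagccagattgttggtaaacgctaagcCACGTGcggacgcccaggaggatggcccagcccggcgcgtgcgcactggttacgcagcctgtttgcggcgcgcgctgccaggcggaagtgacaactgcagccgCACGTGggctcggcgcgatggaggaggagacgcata
FBL: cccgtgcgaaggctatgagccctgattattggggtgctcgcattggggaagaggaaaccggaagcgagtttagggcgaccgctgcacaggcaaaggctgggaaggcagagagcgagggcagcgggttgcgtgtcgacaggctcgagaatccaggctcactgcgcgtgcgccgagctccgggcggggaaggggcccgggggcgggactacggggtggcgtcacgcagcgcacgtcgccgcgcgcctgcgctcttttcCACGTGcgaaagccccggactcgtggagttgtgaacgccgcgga
WDR43: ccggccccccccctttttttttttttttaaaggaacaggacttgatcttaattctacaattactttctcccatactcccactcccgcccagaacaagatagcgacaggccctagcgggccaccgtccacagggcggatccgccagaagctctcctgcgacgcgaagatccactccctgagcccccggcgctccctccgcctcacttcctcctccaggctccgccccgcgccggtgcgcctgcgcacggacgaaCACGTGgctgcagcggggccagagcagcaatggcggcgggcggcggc
In EXOSC5 the first E-box begins 89 bases before the start and the second at base 15 of the transcript. In FBL it begins at base 7 and in WDR43 at base 4, so each of the 3 promoters holds one within or at the beginning of the transcribed part. MYC itself had 356.5, 343.6 and 350.9 CPM with IRF9 and 178, 184.4 and 178.9 CPM in the controls, a rise of 0.96 on the log2 scale (SE 0.04, adjusted p 1.80e-08, edgeR). Whether that bears on the members was not tested.

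Box C/D particles hold, among other proteins, the methyltransferase fibrillarin (FBL) and the scaffold proteins NOP56 and NOP58, and RRP9 is the protein specific to the U3 particle. The catalytic subunit and the U3 protein rose, while neither scaffold protein passed with TMM scaling. FBL (ENSG00000105202, chromosome 19, 39834458 to 39846379, minus strand) had 115.5, 100.2 and 102.4 CPM with IRF9 and 83.2, 81.1 and 82 CPM in the controls. Every overexpressing library was above every control, and the log2 fold change was 0.37 (SE 0.06, adjusted p 0.000454, edgeR). RRP9 (chromosome 3) had 19.7, 17.7 and 17.7 against 16.1, 13.9 and 12.6 CPM. Its groups did not overlap and it rose by 0.37 (SE 0.10, adjusted p 0.0139, edgeR), a call lost without overexpressing replicate 1 (0.32, adjusted p 0.0546) and without control replicate 3 (0.30, adjusted p 0.0516). NOP56 had 106.2 ± 2.56 against 98.7 ± 3.29 CPM (mean ± SD, n = 3 per group; log2 fold change 0.11), with all overexpressing libraries above the controls. NOP58 had 97.6 ± 1.04 against 103.8 ± 1.79 CPM (-0.09), with all overexpressing libraries below the controls. Their adjusted p-values were 0.0784 and 0.101 in edgeR's quasi-likelihood test, and NOP56 passed on library size alone (0.17, adjusted p 0.00917, edgeR). The difference between FBL and its scaffold proteins was not tested.

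Box H/ACA particles hold the pseudouridine synthase dyskerin (DKC1) with NHP2 and GAR1, and NOLC1 is a nucleolar chaperone of these particles. DKC1 (chromosome X, 154762742 to 154777689, plus strand) had 110.9, 106.7 and 108.3 CPM with IRF9 against 85.3, 87 and 89 CPM. NOLC1 (chromosome 10, 102152176 to 102163871, plus strand) had 262.3, 267.1 and 266.9 against 219.6, 220.3 and 216.9 CPM. Both separated the groups with little spread inside them: DKC1 rose by 0.32 (SE 0.04, adjusted p 0.000141, edgeR) and NOLC1 by 0.28 (SE 0.03, adjusted p 0.00011, edgeR). GAR1, at the low end of the members with 12.4 ± 1.01 against 9.75 ± 1.21 CPM, rose by 0.35. That call was lost without overexpressing replicates 1 (0.28) or 3 (0.36), without control replicates 2 (0.32) or 3 (0.28), and with no filter on low counts (0.36, adjusted p 0.0619, edgeR). NHP2 had 59.3 ± 3.85 against 56.8 ± 1.54 CPM, groups that overlap, and its log2 fold change of 0.06 had a 95% interval of -0.06 to 0.18.

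Nucleolar chaperones and proteins of the granular zone had a median log2 fold change of 0.29. Of these 5 genes, 4 were higher and none lower, beside 18.4% and 17.4% of all genes tested. LYAR, a nucleolar zinc finger protein that promotes precursor RNA processing, had 21.5, 22.2 and 22.5 CPM with IRF9 and 14.4, 14.3 and 12.9 CPM in the controls. This was the largest log2 fold change of the 46, 0.67 (SE 0.07, adjusted p 6.5e-05, edgeR), or 1.59-fold, and the groups stood well apart. NPM3, a nucleoplasmin family histone chaperone, had 45.1, 36.8 and 40.3 against 27.9, 28.6 and 26.1 CPM, a rise of 0.57 (SE 0.07, adjusted p 0.000196, edgeR). Its relative NPM1, or nucleophosmin, which organises the granular zone, rose by 0.24 from 656 ± 17.1 to 776.2 ± 44.4 CPM. NPM1 has 46 named pseudogenes in the table, whose counts came to 0.926% of its own. DDX21, an RNA helicase that links polymerase I transcription to processing, had 331.8, 356.5 and 348 against 280.8, 285.5 and 278.6 CPM, a rise of 0.29 (SE 0.04, adjusted p 0.000151, edgeR). NCL, or nucleolin, did not pass, with 606.1 ± 16.7 against 623.9 ± 12.2 CPM and overlapping groups. Its log2 fold change was -0.04 (95% interval -0.115 to 0.031) and became 0.03 when libraries were scaled by size only.

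RNA polymerase I was represented by its largest subunit POLR1A, its second largest subunit POLR1B and POLR1C, which it shares with polymerase III. These 3 genes went different ways. POLR1A (chromosome 2, 86020216 to 86106155, minus strand) had 73.1, 86.9 and 88.1 CPM with IRF9 and 101.7, 106.9 and 97 CPM in the controls. It fell by 0.30 (SE 0.07, adjusted p 0.00647, edgeR), the lowest value of the 46, with overexpressing replicate 1 farthest below. On log2(FPKM + 1) its difference was -0.22 with an adjusted p of 0.0736 (limma). POLR1B had 58.5, 60.7 and 63 against 53.6, 55.5 and 53.5 CPM and rose by 0.16 (SE 0.04, adjusted p 0.0151, edgeR). That call was lost without overexpressing replicate 3 (0.13), without control replicates 1 (0.16) or 3 (0.15), and on log2(FPKM + 1) (0.17, adjusted p 0.248, limma). POLR1C had 18.9 ± 1.52 against 19.5 ± 0.571 CPM and did not pass; XPO5, YIPF3 and other genes on the opposite strand overlap it and hold 836% of its counts.

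**Figure D2:**
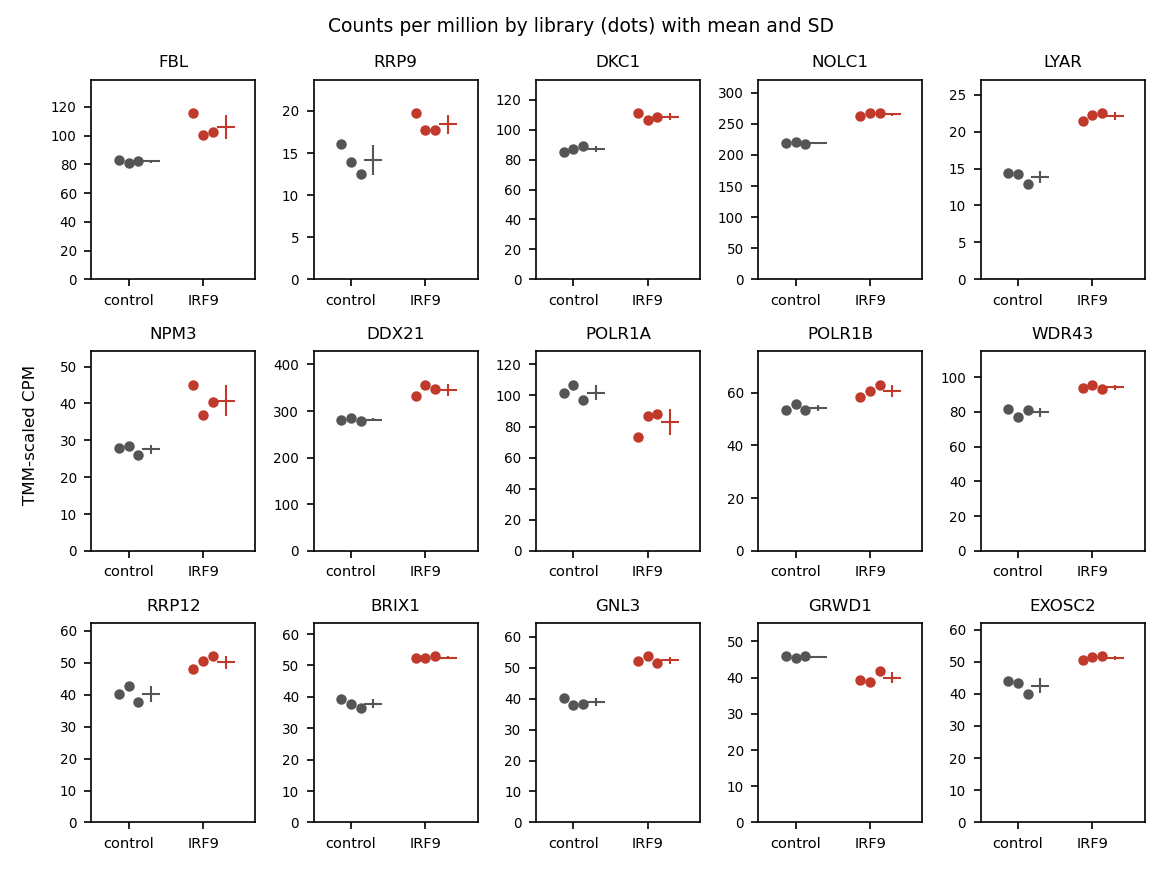
TMM-scaled CPM (y axis, from 0) of 15 members in each control (grey) and IRF9-overexpressing (red) library, with the mean and SD beside the dots. The 3 red dots lie above the 3 grey dots in every panel except POLR1A and GRWD1, where they lie below.

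Small subunit assembly factors rose in 6 of 10 cases and none fell, beside 18.4% and 17.4% of all genes tested. Their median log2 fold change was 0.25. WDR43, a protein of the early small subunit processome, had 93.6, 95.6 and 93.2 CPM with IRF9 against 81.4, 76.8 and 81.1 CPM. RRP12, which takes part in export and maturation of pre-ribosomes, had 48, 50.6 and 52.1 against 40.2, 42.7 and 37.8 CPM. Neither gene's groups overlapped, and they rose by 0.24 (SE 0.04, adjusted p 0.0012, edgeR) and 0.32 (SE 0.06, adjusted p 0.00125, edgeR). NOB1, the endonuclease that makes the 3′ end of 18S ribosomal RNA, rose by 0.35 from 58.4 ± 4.89 to 74.6 ± 4.34 CPM, and its partner PNO1 by 0.26 from 32 ± 2.70 to 38.3 ± 2.21 CPM. The call of PNO1 was lost without control replicates 1 (0.24) or 3 (0.21). BYSL, the human bystin, rose by 0.26 and the helicase DDX10 by 0.29, at 26 against 21.8 CPM and 18 against 14.7 CPM. Both calls were lost on leaving out 4 of the 6 libraries in turn and with no filter on low counts: BYSL lost its call without overexpressing replicates 1 (0.23) or 3 (0.23) and control replicates 1 (0.18) or 2 (0.28), and DDX10 without overexpressing replicates 1 (0.28) or 2 (0.25) and control replicates 1 (0.30) or 3 (0.21). The late cytoplasmic factors TSR1 and LTV1 did not pass, at 115.8 ± 1.36 against 114.3 ± 0.587 CPM and 30.9 ± 0.558 against 29 ± 0.594 CPM, although their libraries did not overlap. LTV1 passed on library size alone (0.16, adjusted p 0.0265, edgeR) and on log2(FPKM + 1) (0.15, adjusted p 0.0311, limma). NOP14, at 50.8 ± 2.16 against 51.3 ± 1.75 CPM, and UTP20, a large scaffold protein at 39.5 ± 4.16 against 44 ± 1.90 CPM, did not pass either. NOP14-AS1, an antisense gene, holds 35.2% of the counts of NOP14.

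Among the 10 large subunit factors, 5 rose and 1 fell, beside 18.4% and 17.4% of all genes tested, and the median was 0.15. BRIX1, a factor of early large subunit assembly, had 52.4, 52.2 and 53 CPM with IRF9 and 39.3, 37.6 and 36.5 CPM in the controls. GNL3, or nucleostemin, a nucleolar GTPase of proliferating cells, had 52.2, 53.7 and 51.5 against 40.3, 37.9 and 38.4 CPM. These 2 genes had the smallest p-values of all 46 and groups that lay far apart: BRIX1 rose by 0.47 (SE 0.05, adjusted p 2.14e-05, edgeR) and GNL3 by 0.43 (SE 0.05, adjusted p 4.34e-05, edgeR). RAD1 on the opposite strand of BRIX1 holds 59% of its counts, and PBRM1 and GLT8D1 opposite GNL3 hold 104%. The 3 proteins of the PeBoW complex, which is needed for processing of the large subunit RNAs, are PES1, BOP1 and WDR12, of which the latter pair passed the test. WDR12 rose by 0.27 from 40 ± 1.10 to 48.1 ± 1.69 CPM, a call lost on log2(FPKM + 1) (0.21, adjusted p 0.0575, limma). BOP1 rose by 0.19, with the adjusted p nearest the threshold, 0.0478 (edgeR), and lost the call without overexpressing replicates 1 (0.11) or 3 (0.21) and without control replicates 1 (0.18) or 2 (0.15). It was also lost with DESeq2 size factors (0.18, adjusted p 0.053, edgeR) and with no filter on low counts (0.20, adjusted p 0.079, edgeR). PES1 had 87.5 ± 5.82 against 87.4 ± 1.42 CPM, a log2 fold change of 0.00 with a 95% interval of -0.11 to 0.12. The differences among the 3 were not tested.

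Of the remaining large subunit factors, NOP16 rose by 0.31 from 30.5 ± 0.845 to 37.8 ± 2.57 CPM. GRWD1, a WD repeat protein that also acts as a histone chaperone, went the other way, with 39.4, 38.8 and 41.7 CPM with IRF9 and 45.9, 45.5 and 45.9 CPM in the controls. It fell by 0.19 (SE 0.05, adjusted p 0.00742, edgeR) with no overlap between the groups. The call was lost when libraries were scaled by size only (-0.13, adjusted p 0.0505) and on log2(FPKM + 1) (-0.11, adjusted p 0.198, limma), and the value was -0.15 when KCNJ14, which overlaps it on the same strand, was added. NOP2, an RNA methyltransferase, had 55.6 ± 2.51 against 56.1 ± 3.20 CPM and RRS1 33.9 ± 1.90 against 31.4 ± 1.5 CPM, both with overlapping groups. RRS1 passed on library size alone (0.18, adjusted p 0.0407, edgeR). PPAN had 33.7 ± 3.95 against 31 ± 4.99 CPM, the widest spread among the controls. The annotated readthrough PPAN-P2RY11, P2RY11 and 2 snoRNAs overlap PPAN on its strand and hold 54.3% of its counts, and the log2 fold change went from 0.12 to 0.01 when they were added.

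Exosome subunits rose in 7 of 10 cases, with none lower, beside 18.4% and 17.4% of all genes tested. Their median log2 fold change was 0.22. The ring proteins EXOSC4 to EXOSC9 made up 5 of the 7 and the cap proteins EXOSC1 and EXOSC2 the other 2. EXOSC5, a ring protein, had 19.9, 18.3 and 18.4 CPM with IRF9 and 13.4, 12.4 and 11.1 CPM in the controls. It rose by 0.62 (SE 0.09, adjusted p 0.000408, edgeR), or 1.54-fold, with clear separation of the groups. EXOSC2 had 50.6, 51.5 and 51.7 against 44.1, 43.5 and 39.9 CPM, again without overlap, and rose by 0.27 (SE 0.05, adjusted p 0.00167, edgeR). EXOSC7, EXOSC8 and EXOSC6 rose by 0.38, 0.31 and 0.20. EXOSC9 rose by 0.24 and EXOSC1 by 0.19, but EXOSC9 lost its call without overexpressing replicates 1 (0.25) or 2 (0.20) and control replicates 2 (0.23) or 3 (0.21), and EXOSC1 without overexpressing replicates 1 (0.15) or 3 (0.20) and control replicates 1 (0.19) or 2 (0.17).

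EXOSC10, the distributive nuclease of the nuclear exosome, had 75.4, 78.4 and 79.1 CPM with IRF9 and 80.5, 84.8 and 82.4 CPM in the controls, a log2 fold change of -0.09 (95% interval -0.18 to 0.00). EXOSC3, the third cap protein, had 27.5 ± 1.66 against 30.9 ± 1.88 CPM (-0.16), and EXOSC4 15.3 ± 1.01 against 13.8 ± 0.604 CPM (0.16). For EXOSC10 and EXOSC3 every overexpressing library was below every control, while the libraries of EXOSC4 overlapped. EXOSC4 passed on log2(FPKM + 1) (0.21, adjusted p 0.0487, limma). EXOSC3, EXOSC7, EXOSC8 and EXOSC9 each share their position with opposite-strand genes that hold 221% to 317% of their counts, such as CCNA2 opposite EXOSC9 (238%) and ZDHHC3 opposite EXOSC7 (317%). The same holds for NOP16, at 159%, while RMND5B opposite NHP2 holds 45.9%. Whether counting used strand is not stated, so the values of these genes are uncertain.

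**Figure D3:**
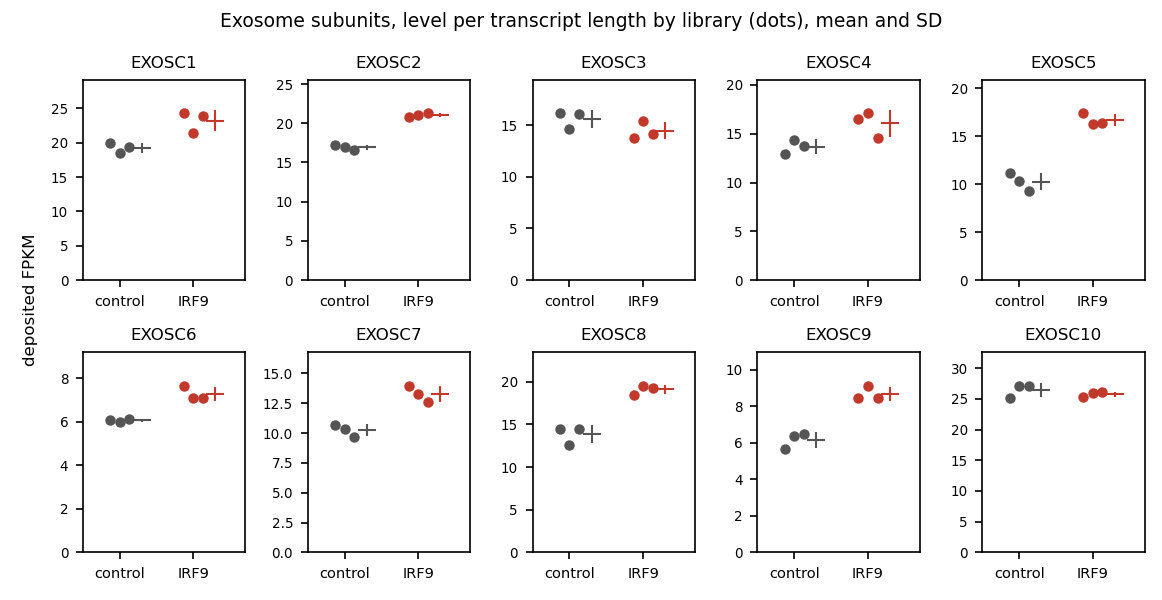
Deposited FPKM (y axis, from 0) of the 10 exosome subunits in each control (grey) and IRF9-overexpressing (red) library, with mean and SD. EXOSC10 is the most abundant per length at 25.2 to 27.2 FPKM, EXOSC6 and EXOSC9 the least abundant, and EXOSC5 shows the widest gap between groups.

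Per transcript length, the subunits of one complex were not at one level. In the controls, EXOSC10 had 26.5 FPKM on average, followed by EXOSC1 (19.3), EXOSC2 (17), EXOSC3 (15.6), EXOSC8 (13.9), EXOSC4 (13.7), EXOSC5 (10.3), EXOSC7 (10.2), EXOSC9 (6.16) and EXOSC6 (6.07). EXOSC8 and EXOSC4, EXOSC5 and EXOSC7, and EXOSC9 and EXOSC6 are neighbours whose control libraries overlap. EXOSC5 moved from 10.3 to 16.7 FPKM and so passed EXOSC3, which went from 15.6 to 14.4 FPKM. Over all members the control level ran from 3.72 FPKM for DDX10 to 362.7 FPKM for NPM1, and NPM1, NCL and FBL held the first 3 places in both groups. FPKM libraries did not overlap for 31 members in the higher and 2 in the lower direction, beside 28.5% and 17.2% of all genes tested, and 3 members had opposite signs in CPM and FPKM.

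The 8 members NOP56, NOP58, DKC1, NCL, WDR43, TSR1, PPAN and GNL3 hold 27 annotated snoRNAs on their own strand within their span. That is 17.4% of the members, beside 1.54% of the 14128 protein-coding genes tested. NOP56 holds SNORD56, SNORD57, SNORD86, SNORD110 and SNORA51, and GNL3 holds SNORD19 and SNORD69 with copies. Among these 8 hosts 3 rose, and the median log2 fold change was 0.11, while 25 of the other 38 members rose and 2 fell, with a median of 0.25. Of all genes tested, 18.4% rose and 17.4% fell. The difference between hosts and other members was not tested. Genes inside or across these hosts on their strand, the snoRNAs among them, held at most 0.359% of the host's counts, except at PPAN.

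Noncoding snoRNA host genes, whose spliced transcripts are mostly by-products of snoRNA production, had a median log2 fold change of 0.58, beside 0.00 for all genes tested. This was the highest median of the lists described here, which were chosen with earlier results of these data known. Of 14 tested, 12 rose (85.7%) and none fell, beside 18.4% and 17.4% of all genes tested. GAS5 had 143.5, 141.9 and 133.8 CPM with IRF9 and 73.9, 75 and 71.8 CPM in the controls, a rise of 0.93 (SE 0.04, adjusted p 1.06e-07, edgeR). SNHG15 had 61.2, 59.8 and 56.3 against 30, 30.3 and 29.9 CPM, a rise of 0.97 (SE 0.05, adjusted p 1.38e-07, edgeR). In both genes the overexpressing libraries lay far above the controls. SNHG12 (0.11) and SNHG17 (0.01) did not pass. The count of 12 was also found without each library in turn.

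The other proteins of the pathway, 133 genes on 5 lists, held 45 higher and 14 lower genes (33.8% and 10.5%) with a median of 0.06. Of all genes tested, 18.4% rose and 17.4% fell, and of those with a mean of at least 10 CPM, 24.5% and 26.4%. On library size alone the higher and lower genes of the 5 lists were 57 and 8. Without overexpressing replicate 2 they were 42 and 9, and a minimum log2 fold change of 0.25 left 19 and 6. Other snoRNP factors held 5 higher and 0 lower of 10, among them the ATPase RUVBL1 (0.45) and the snoRNA-binding SNU13 (0.29). Genes on the opposite strand hold 391% of the counts of RUVBL1 and 27.1% of those of SNU13. Other polymerase I factors held 6 higher and 2 lower of 13. TCOF1, or treacle, which brings polymerase I factors together, rose by 0.58 from 101.9 ± 2.26 to 152.8 ± 11 CPM and TAF1D by 0.30. CD74, opposite TCOF1, holds 444% of its counts, and genes opposite TAF1D hold 95.9%. UBTF, the upstream binding factor of ribosomal DNA, fell by 0.33 from 65.1 ± 2.55 to 52 ± 1.03 CPM and TAF1C fell by 0.26. UBTF and POLR1A thus fell in the same libraries in which TCOF1 and POLR1B rose. Since strand use in counting is not stated, the values of TCOF1, TAF1D and RUVBL1 are uncertain.

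Other small subunit factors held 10 higher and 4 lower of 45 (22.2% and 8.89%, median 0.04), a higher share near the background, with AATF (0.36) and UTP6 (0.24) higher and IMP3 (-0.28) and NOP9 (-0.22) lower. Opposite-strand genes hold 219% of the counts of IMP3, so its value is uncertain. Other large subunit factors held 20 higher and 3 lower of 47 (42.6% and 6.38%, median 0.10), with RSL24D1 (0.53) and NLE1 (0.59) higher and NOL9 (-0.48) and DDX24 (-0.18) lower. Of 18 exosome nucleases and cofactors, 4 rose (22.2%) and 5 fell (27.8%), with a median of -0.05. All genes tested had 18.4% higher and 17.4% lower, and those with a mean of at least 10 CPM had 24.5% and 26.4%. The nuclear helicase MTREX (0.24) and ZCCHC7 of the polyadenylation complex (0.43) rose, while the poly(A) polymerase TENT4A (-0.24) and NRDE2 (-0.36) fell. DIS3, the processive nuclease of the exosome, had a log2 fold change of 0.03 and did not pass. A difference between the core and its cofactors was not tested.

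**Figure D4:**
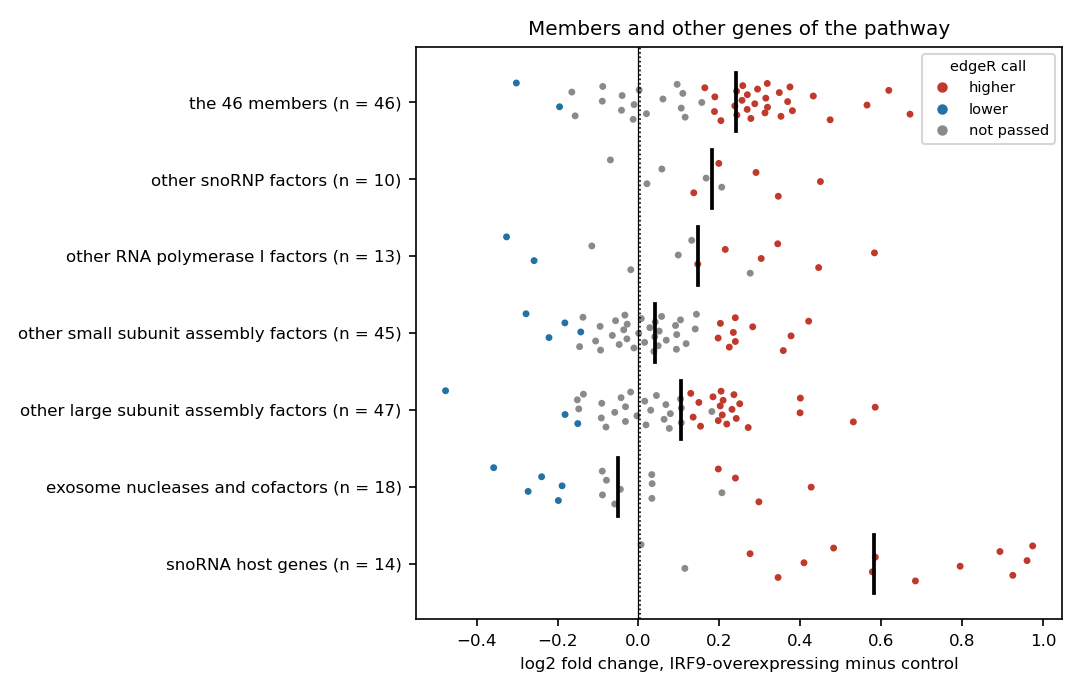
Log2 fold change (IRF9-overexpressing minus control, x axis) of the 46 members and of 6 other lists of the pathway, each dot a gene coloured by its edgeR call, each black bar the median of its list and the dotted line the median of all genes tested. The members' median is 0.24, that of snoRNA host genes 0.58 and that of exosome nucleases and cofactors -0.05.

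Within groups the members varied little: the median coefficient of variation was 4.70% in the overexpressing and 3.37% in the control libraries. Overexpressing replicate 1 was the highest of its group for 24 of the 46 genes and control replicate 1 for 22, with median deviations of 0.03 and 0.02 on the log2 scale. Without overexpressing replicate 1, 21 members rose and 2 fell, the lowest count of higher members on leaving out a library. The widest spreads were those of PPAN (16.1%), RRP9 (12.6%) and GAR1 (12.4%) in the controls. Of the 30 called members, 21 kept the call without each library in turn, 19 of them higher, and the 9 that did not are named with their roles. The members lie on 18 chromosomes, with 7 on chromosome 2 and 5 on chromosome 10.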

How the data were processed

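RNA of 6 libraries was sequenced after Trizol extraction and an Illumina TruSeq RNA preparation, per the labels' protocols. One deposited table holds raw counts by gene. Another, with symbols and positions, holds values the authors normalised, taken here as FPKM because they are not whole and sum to unequal totals, since its header names no unit. Per the submitters' processing notes, the build was GRCh38 and the tools included HISAT2 and StringTie, with CASAVA 1.8, FastQC, Trimmomatic and edgeR, in roles not stated. Strand use and annotation release are not stated, so genes that overlap others are uncertain.

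The test on counts was that of edgeR 4.0.16 (R 4.3.3): filterByExpr (minimum count 10, minimum total 15), TMM scaling, and a quasi-likelihood fit of group over the 6 libraries, with Benjamini-Hochberg adjustment over 19034 genes. SEs were derived from the F statistic, and 95% intervals from its degrees of freedom. CPM is TMM-scaled; means are given ± SD with n = 3. The fit was also run on simulated counts, with changed genes drawn from all levels of expression. It recovered 32.7% of 1.25-fold, 61.7% of 1.5-fold, 66.7% of 2-fold and 81.6% of 4-fold changes at adjusted p under 0.05. It also called 10 unchanged genes. Every member had a mean of at least 10 CPM, so these shares do not give the recovery for the members. Averaged over genes, the variance between 2 replicates of a group was 8.81 to 21.9 times what counting error gives. Alternatives used DESeq2 1.42.0, limma 3.58.1 (voom, and trend on log2(FPKM + 1) and log2(FPKM + 0.1)), other scalings and filters, a replicate block, overlapping genes summed and each library left out. Promoters are from RefSeq; protein sequences were not used here. In each role, values per library are given for the 2 members with the smallest p and for members called against their role, and in the other lists the 2 called genes with the smallest p in each direction are named. NPM3, EXOSC10, DIS3, SNHG12 and SNHG17 were added after their values were seen, as was the robust fit. The members and lists were chosen with earlier results of these data known. With 61645349 or more counts per library, the spread between libraries exceeded counting error on that average over genes. For the members alone the ratio was not computed. One item of the leukocyte marker list is not reported here.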

Additional observations from a re-analysis of the deposited data

How the results depend on the processing

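Over 19 alternatives, 28 higher members became 21 to 31 and their median log2 fold change 0.21 to 0.31. The number of lower members, 2, was 1 with scaling by library size only and at a minimum log2 fold change of 0.25, and 0 on log2(FPKM + 1) and on log2(FPKM + 0.1). That minimum left 4 exosome members higher and, of the other proteins of the pathway, 19 higher and 6 lower, fewer by construction. Those lower proteins, 14, were 8 with scaling by library size only and 5 on either FPKM scale. All lower genes, 3314, were 2090 on log2(FPKM + 1) and 2074 on log2(FPKM + 0.1); the cause was not tested. Leaving out 1 library gave 21 to 26 higher members, 2 lower, 5 to 6 exosome members higher, 9 to 12 lower and 32 to 42 higher of the other proteins, and 5611 to 6456 called genes.

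Of 874 values of single members under alternatives, 790 kept direction and call, 53 lost the call, 8 gained one and 23 changed sign. No called member changed sign. The sign changes were those of 5 genes near 0. PES1 was -0.00257 with DESeq2 size factors, -0.00249 in DESeq2 and -0.000238 with the replicate block, and -0.038 to 0.0559 on leaving out 1 library. NCL was 0.0253 with library size only, 0.0148 on log2(FPKM + 1) and 0.0149 on log2(FPKM + 0.1). POLR1C was 0.027 with library size only and -0.0793 to 0.0224 on leaving out 1 library. NOP14 was 0.0542 with library size only, 0.0694 and 0.0744 on the FPKM scales, and -0.0495 to 0.0157 on leaving out 1 library. NOP2 was 0.0565 with library size only, 0.00129 with upper quartile scaling, 0.00176 with no filter, 0.0598 and 0.0626 on the FPKM scales, and -0.0499 to 0.0326 on leaving out 1 library.

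Whether replicate numbers pair the samples is not stated. Same-numbered libraries deviated from their group means with correlations of 0.104, 0.0117 and -0.0417 over 11369 genes. With so few libraries per group, these values cannot show whether the samples were paired. The replicate block gave 28 higher and 3 lower members and 7033 called genes in all, against 6815. The third was UTP20 (-0.16, adjusted p 0.0385, edgeR).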
